A study of Rattus norvegicus with 6 samples.

Results

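The genes described here are 50 genes of the NF-kB pathway and of the cytokines, chemokines and Toll-like receptors connected to it, in cultured rat cortical neurons. They were chosen by symbol. Probe sets whose annotation names exactly 1 gene represented 45 of them, out of 14506 genes represented in this way. Each of the 45 had a single probe set. No probe set of this kind represented Rel, Relb, Tnfaip3, Traf1 or Tnfaip2, and these 5 genes were not analysed here. The neurons came from cortices of Sprague-Dawley embryos of day 18 and were cultured in NB-N2 medium for 3 days, so both groups shared tissue, age and medium. The C1q group consisted of 3 arrays of neurons stimulated with 10 nM C1q for 3 h, and the control group of 3 arrays of untreated neurons. C1q is the recognition protein of the classical complement pathway. The labels number the arrays within each group and do not say whether the numbers mark separate cultures, so the p-values below measure array-to-array spread only, and that spread could be technical.

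NF-kB is a family of dimeric transcription factors kept in the cytoplasm by inhibitory IkB proteins. Toll-like receptors and the receptors of tumour necrosis factor and interleukin-1 activate the IkB kinase complex, IkB proteins are degraded, and the freed dimers switch on cytokine, chemokine and adhesion genes together with the genes of their own inhibitors. In brain this response is best known from microglia, astrocytes and vessel cells. The comparison asks which of these genes a neuronal culture expresses and whether their levels with brief C1q treatment differ from those without it.

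Matches to the NF-kB binding consensus are shown first, from a search chosen after the array values were seen. The 10-base NF-kB consensus was searched on both strands in the RefSeq promoter windows of assembly GRCr8, which run from 250 bases before to 50 bases after the transcript start used in that table. A window was available for 39 of the 50 genes, and 18 of them, or 46.2%, held at least 1 match. Over the windows of all 27457 gene symbols in the table the share was 4.16%. The 50 genes were chosen for their link to NF-kB, so the difference between these shares is not a finding of these data. A match is a run of letters and not evidence that NF-kB binds there in these neurons. Of the 8 genes with a match whose probe sets read above the floor defined below, matches of 5 are shown, and those of Nfkbie, Socs3 and Ikbkg are not. They are written 5′ to 3′ along the gene's strand with the matching 10 bases in capitals.

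Nfkbia, chr6:78597084-78597113, minus strand, match beginning 31 bases before the start: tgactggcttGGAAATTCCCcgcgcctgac
Nfkb1, chr2:226805440-226805469, minus strand, match beginning at base 4 after the start: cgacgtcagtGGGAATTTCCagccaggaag
Nfkbiz, chr11:58251698-58251727, plus strand, match beginning 13 bases before the start: tttttggcctGGGAATTTCCagcgtgtgga
Cxcl1, chr14:17479386-17479415, minus strand, match beginning 84 bases before the start: cctgtgctccGGGAATTTCCctggcctgga
Vcam1, chr2:206742857-206742886, minus strand, match beginning 93 bases before the start: tccccttgaaGGGATTTCCCtccgcctctc

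Of the 8 genes with a match whose probe sets read at or under the floor, 4 are shown for comparison with the bright genes.

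Nfkb2, chr1:255108344-255108373, plus strand, match beginning 20 bases before the start: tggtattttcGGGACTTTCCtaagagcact
Il6, chr4:5894624-5894653, minus strand, match beginning 68 bases before the start: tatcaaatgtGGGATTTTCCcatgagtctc
Cxcl10, chr14:15988869-15988898, plus strand, match beginning 187 bases before the start: gcaggaaagaGGGAAATTCCaagctcatgg
Cxcl2, chr14:17467310-17467339, minus strand, match beginning 74 bases before the start: cctaagctcaGGGGATTTCCctgatccctg

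The Nfkbia match lies on the opposite strand and the other 8 along the gene. In Cxcl1 and Cxcl2 a further match overlapped the printed one, shifted by 1 base. Matches were present in 8 of 17 windows of genes above the floor, 47.1%, and in 8 of 18 windows of genes near it, 44.4%.

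Intensities on the 6 arrays were compared on a log2(intensity + 16) scale. Array medians lay between 147 and 155, and log2 values correlated between arrays at 0.991 to 0.996 across probe sets. Neuronal identity of the cultures was checked on 13 matched marker genes, all of which read above the floor, with Tubb3 at 7952 in C1q and 8078 in untreated neurons on average and Dcx at 8672 and 8601 in the same order. Their summed intensity ranged from 46434 to 48703 on C1q arrays and from 46480 to 50584 on untreated arrays. Of 16 microglia and macrophage markers 3 read above the floor, Cd68, C1qb and Fcgr3a. The microglial genes Itgam, Ptprc, Aif1, P2ry12 and Cx3cr1 did not, and the Cx3cr1 probe set, for the receptor of the chemokine encoded by Cx3cl1, averaged 73.0 in C1q and 69.3 in untreated neurons. Above the floor were also 8 of 10 astrocyte markers, without Gfap and Gjb6, then 3 of 9 endothelial markers and 6 of 9 mural and meningeal markers. The microglial list summed to 1097 to 1152 on C1q arrays and 1057 to 1194 on untreated arrays, and the astrocyte list to 3721 to 3747 and 3621 to 3871. For endothelial markers the sums were 606 to 682 on C1q arrays and 646 to 734 on untreated arrays, and for mural and meningeal markers 7432 to 7698 and 7606 to 8072. Most of the mural and meningeal sum came from Acta2 alone, at 6657 in C1q and 6837 in untreated neurons on average. Rgs5, Dcn and Lum of that list were near the floor. No marker was at 0, and the part of these cell types in the levels below was not tested. In such cultures fewer cells of a type and less RNA per cell cannot be told apart.

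About as many of these genes read above as near the background in untreated neurons. No detection calls were used, so the floor was set from 1130 olfactory, vomeronasal and bitter taste receptor genes, which are mostly silent outside sensory tissue. Vomeronasal genes entered only under the symbols Vmn1r and Vmn2r. The untreated means of the 1130 genes had a median of 31.9, and 95% of them lay under 98.2, the intensity taken as the floor. Of the 45 genes 23, or 51.1%, read above it and 22 at or under it, beside 9577 of all 14506 genes, or 66.0%, above it. Just above it were Nfkbiz, at a mean of 105, and Tnfrsf1a, at 108. The first 2 under it were Nfkb2, at 89.2, and Ccl7, at 88.8. Probe sets bind their targets with different efficiency, so the order of intensities is not an order of transcript amounts. By role, 8 of 9 measured genes of NF-kB, IkB and the IkB kinase were above the floor, 4 of 10 receptors and adaptors, 0 of 7 cytokines, 7 of 12 chemokine genes including the receptor Cxcr4, and 4 of 7 adhesion, enzyme and other target genes. A floor at the 95th percentile of 37 genes of other tissues, several of which read high, would lie at an intensity of 309.7 and leave 12 of the 45 genes above it. With the receptor genes named Vom1r and Vom2r added, 1265 in all, the floor would lie at 89.8 and leave 23 above it.

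**Figure D1:**
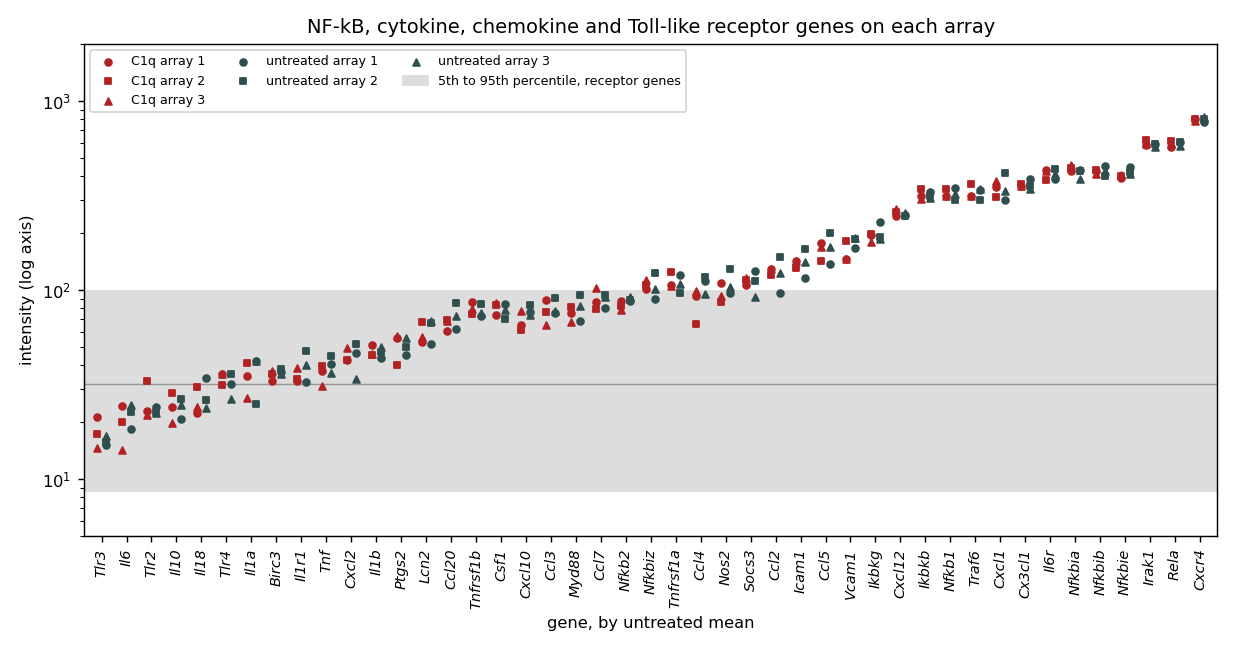
Intensity on a log axis of the 45 measured genes on each of 3 C1q arrays (red, left) and 3 untreated arrays (dark slate grey, right), ordered by the untreated mean. The grey band runs from 8.69 to 98.2, the 5th to 95th percentile of 1130 presumably silent receptor genes, with their median of 31.9 as a line, and 23 genes have untreated means above it.

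No gene of the pathway passed the test for a difference after C1q. The limma fit over all 29215 probe sets called 0.00342% of them at an adjusted p under 0.05, a single probe set that names no single gene and read lower after C1q. Of the 45 genes 0 were called, and at an unadjusted p under 0.05 there were also 0, where 2.86% of all probe sets and 1.25% of all 14506 genes reached that level. Means were higher after C1q for 21 of the 45 genes and lower for 24, or 46.7% higher, beside 37.6% of all 14506 genes. The split became 27 higher and 18 lower under both quantile normalization and median centring. The 37.6% is no counterpart of these rescaled splits or of those by role below. Under the rescalings the median log2 fold change of all genes became 0.003 and 0.008, and their share higher was not counted. Without rescaling the median log2 fold change of the 45 genes was -0.005, against -0.019 over all genes. The value for the 45 genes was -0.034 without untreated array 1. The 2 groups were fully separated for Nfkbie and Nfkb2, 2 of 45 genes, both lower after C1q. Over all probe sets 7.06% were separated, 5.18% in that direction and 1.88% in the other, and over all 14506 genes 6.33%, 4.67% and 1.66% in the same order. The intervals bound changes of the intensity only, as far as the array-to-array spread measures them. For 22 of the 23 genes above the floor, all but Ccl4, the 95% interval stayed inside 1.5-fold of no change. For genes near the floor, and for those little above it, an unknown part of the signal is background. Their intervals do not bound a change of the mRNA.

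**Figure D2:**
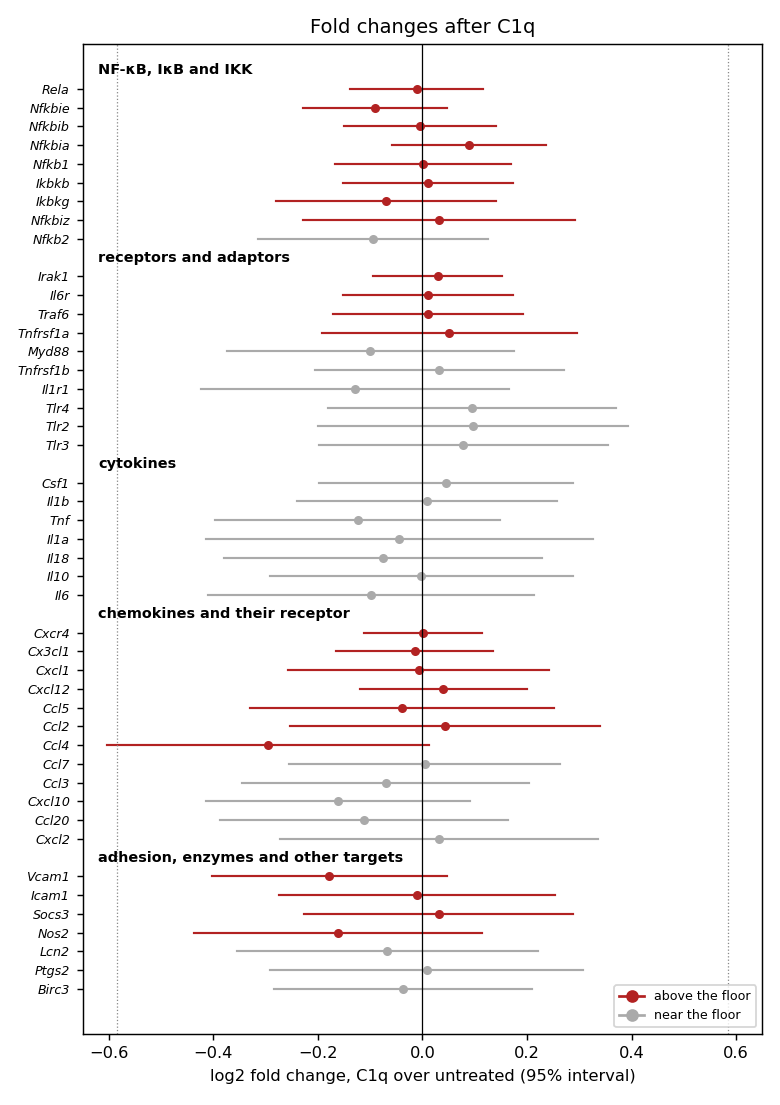
Log2 fold change of C1q over untreated with its 95% interval from the limma fit for the 45 genes, grouped by role and ordered by untreated mean within a role, in red above the floor and in grey near it. Dotted lines mark 1.5-fold. Every interval includes no change, and the estimates run from -0.30 for Ccl4 to 0.10 for Tlr2.

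Of the transcription factor genes, Rela and Nfkb1 were measured at nearly equal levels in both groups. Rela encodes the subunit p65, which carries the transactivating domain of the common NF-kB dimer, and read 567, 617 and 589 on the C1q arrays, against 606, 604 and 577 on the untreated arrays. Nfkb1, for the precursor of its partner p50, read 315, 343 and 313 with C1q and 348, 301 and 322 without. All arrays of both groups overlapped for these genes, with fold changes of 0.993 for Rela, 95% interval 0.909 to 1.08, and 1.00 for Nfkb1, interval 0.891 to 1.12. Nfkb2 encodes the precursor p100 of the noncanonical pathway and lay near the floor. Its C1q arrays read 86.9, 82.4 and 78.3 and its untreated arrays 87.1, 88.6 and 92.0, so that the groups did not overlap, although C1q array 1 and untreated array 1 nearly met. The fold change of 0.936 was accompanied by a 95% interval from 0.804 to 1.09 and did not pass the test.

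Nfkbia encodes IkB-alpha, the inhibitor that NF-kB itself induces within a short time in many cell types, which makes its transcript a common readout of the pathway. It read 425, 443 and 456 after C1q, against 432, 424 and 386 in untreated neurons. C1q arrays 2 and 3 were above all untreated arrays, and C1q array 1 lay inside the untreated range. The fold change was 1.06, 95% interval 0.960 to 1.18, at an unadjusted p of 0.208, the smallest among the genes with a higher mean. Its direction was the same under all 17 alternatives, with log2 fold changes of 0.04 to 0.15, and its adjusted p was never under 0.240. The alternatives reused the same arrays. The sign also held in all alternatives run for other genes, with higher or with lower means, 17 of the 45 genes in all.

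None of the other inhibitor genes passed the test either, and their means lay on both sides of the untreated ones. Nfkbie, for IkB-epsilon, read 392, 402 and 407 on C1q arrays and 447, 423 and 412 on untreated arrays, and the groups did not overlap. Its fold change of 0.939, interval 0.854 to 1.03, did not pass. Nfkbib, for IkB-beta, had 428, 432 and 413 with C1q and 454, 402 and 423 without, a fold change of 0.997. Nfkbiz encodes IkB-zeta, a nuclear member of the family that acts as a cofactor on secondary response genes. It was just above the floor at 101, 107 and 112 after C1q and 89.4, 122 and 102 in untreated cells, where the untreated values lay on both sides of all 3 C1q values. Both kinase genes overlapped between the groups as well. Ikbkb, the catalytic subunit IKK-beta, read 314, 343 and 301 with C1q, against 329.9, 315 and 305 without it. The scaffold subunit gene Ikbkg, for NEMO, read 196, 198 and 180.0 with C1q, against 229, 191 and 187 without it, with the highest value on untreated array 1. Of the 9 genes in this role 4 had higher means and 5 lower ones, which turned to 6 and 3 under either rescaling, quantile normalization or median centring.

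Among receptors and adaptors, Irak1 gave the highest intensities. It encodes a kinase that joins MyD88-dependent receptors to TRAF6, and read 581, 619.8 and 589 on C1q arrays and 593, 590.3 and 569.8 on untreated arrays. Traf6, the ubiquitin ligase of the same chain, read 312, 362 and 314 with C1q and 336, 300.4 and 343 without. The groups overlapped for both, with fold changes of 1.02 and 1.01 and intervals of 0.937 to 1.11 and 0.888 to 1.14 for Irak1 and Traf6 in this order. Il6r encodes the ligand-binding chain of the interleukin-6 receptor and read 432, 382 and 427 after C1q, against 384, 435 and 412 in untreated neurons. Tnfrsf1a, the main tumour necrosis factor receptor gene of most cells, was just above the floor, at 107, 125 and 105 with C1q and 119.6, 96.8 and 107 without. Neither gene separated the groups.

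The 3 measured Toll-like receptor genes among the 45, Tlr2, Tlr3 and Tlr4, were near the floor. Tlr4 encodes the receptor of bacterial lipopolysaccharide, and its probe set read 35.8, 31.3 and 36.0 on C1q arrays and 31.6, 35.8 and 26.4 on untreated arrays, a mean above 48.4% of the silent receptor genes in untreated cells. Tlr2, a receptor of bacterial lipoproteins, read 23.0, 33.1 and 21.9 with C1q, against 24.0, 22.7 and 22.3 without it, where C1q array 2 alone stood above the untreated range. Tlr3, the receptor of double-stranded RNA, averaged 17.8 ± 3.35 after C1q and 15.9 ± 0.936 in untreated neurons (SD, n = 3 each), higher than 16.5% of the silent receptor genes. The adaptor gene Myd88 and the receptor genes Tnfrsf1b and Il1r1 were near the floor too, with untreated means of 81.6, 77.7 and 40.1. Fold changes of the 6 genes near the floor in this role lay between 0.915 for Il1r1 and 1.07 for Tlr2. Of all 10 receptors and adaptors 8 had higher means after C1q and 2, Myd88 and Il1r1, lower ones, and the balance was the same with quantile normalization and median centring. None of the 10 was called, and the widest interval here, that of Tlr2, ran from 0.871 to 1.31.

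None of the 7 cytokine genes among the 45 had a mean above the floor in either group. Tnf, for tumour necrosis factor, read 37.2, 39.4 and 31.2 on the C1q arrays, against 40.7, 44.9 and 36.2 on the untreated arrays. Il1b, for interleukin-1 beta, had 50.9, 45.5 and 45.6 with C1q and 43.9, 46.8 and 50.2 without. Il6 read 24.2, 19.9 and 14.3 after C1q and 18.3, 22.7 and 24.5 in untreated neurons. The untreated means of these 3 genes exceeded 64.6%, 74.3% and 29.8% of the silent receptor genes, and the groups overlapped for each. Csf1, the growth factor of microglia and macrophages, read highest of these 7 probe sets, with a mean of 80.7 ± 5.98 in C1q and 77.8 ± 7.12 in untreated neurons (SD, n = 3 each). Il1a, Il18 and the anti-inflammatory cytokine gene Il10 had untreated means of 36.3, 28.0 and 24.0 and fold changes of 0.970, 0.949 and 0.998. Means were higher after C1q for 2 of the 7 cytokine genes and lower for 5, or 3 and 4 under either rescaling, at a median log2 fold change of -0.04.

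The chemokine genes were divided between bright and dim probe sets. Cxcr4, the receptor of the chemokine CXCL12 that guides migrating cortical interneurons, read 801, 805 and 785 on C1q arrays, against 769, 804 and 817 on untreated arrays. Its means of 797 ± 10.3 and 797 ± 25.04 (SD, n = 3 each) gave the narrowest interval of the 45 genes, 0.925 to 1.08. Its ligand gene Cxcl12 read 246, 258 and 269 after C1q and 249, 245 and 255 without. Cx3cl1, for the neuronal chemokine fractalkine that signals to microglia, read 353, 363 and 354 with C1q and 386, 354 and 344 without. The groups of these 3 genes overlapped, and their fold changes of 1.00, 1.03 and 0.990 had intervals inside 1.5-fold of no change.

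Inflammatory chemokines were above the floor in part. Cxcl1, a neutrophil attractant, read 352, 312 and 375 after C1q, against 299, 417 and 335 in untreated cells. Ccl5, for RANTES, read 178, 142 and 168 on C1q arrays and 137, 201 and 169 on untreated arrays. Ccl2, the monocyte attractant MCP-1, had 128, 119 and 129.5 with C1q and 96.4, 150.0 and 123 without. In all 3 genes untreated array 1 was the lowest and untreated array 2 the highest of the 6 arrays, and every C1q value fell between them. The fold changes were 0.995 for Cxcl1, 0.973 for Ccl5 and 1.03 for Ccl2, with intervals of 0.837 to 1.18, 0.796 to 1.19 and 0.839 to 1.26.

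Ccl4, for the macrophage inflammatory protein 1-beta, had the largest fold change of the 45 genes and the smallest unadjusted p, 0.0586, in the limma fit. It read 93.4, 65.8 and 98.1 on C1q arrays, against 111, 117 and 95.5 on untreated arrays. C1q array 2 stood far under the others, and C1q array 3 was above untreated array 3. The C1q values were all at or under the floor of 98.2, whereas 2 of 3 untreated values were above it. The fold change was 0.815, interval 0.658 to 1.01, and 0.904 without C1q array 2. Cxcl2, Ccl3, Ccl7, Ccl20 and Cxcl10, further chemokine genes, were near the floor with untreated means of 43.9 to 88.8 and fold changes between 0.894 for Cxcl10 and 1.02 for Cxcl2. Close chemokine paralogs can bind to the same probes, so single values of Ccl3, Ccl4, Cxcl1 and Cxcl2 are uncertain. Over the 12 genes 5 had higher and 7 had lower means after C1q, which turned to 7 and 5 under either rescaling.

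Of the adhesion, enzyme and feedback genes, Vcam1 had the second smallest unadjusted p of the 45, 0.108. It encodes the vascular cell adhesion molecule and read 147, 181 and 146 after C1q, against 167, 185 and 188 in untreated neurons. C1q arrays 1 and 3 were under all untreated arrays and C1q array 2 was inside the untreated range. The fold change was 0.884, interval 0.756 to 1.03, and 0.829 without C1q array 2. Icam1, a related adhesion molecule gene, read 142, 130.1 and 143 on C1q arrays and 115, 165 and 141 on untreated arrays, with all C1q values between the untreated ones. Nos2, the inducible nitric oxide synthase gene, had 109, 86.5 and 93.0 with C1q and 96.9, 129 and 104 without. Socs3, an inhibitor of cytokine signalling induced through STAT3, read 106, 113 and 116 after C1q, against 126, 112 and 91.7 in untreated cells. Fold changes were 0.993, 0.894 and 1.02 for Icam1, Nos2 and Socs3, and the groups of each overlapped. Ptgs2, which encodes cyclooxygenase-2 and is also an activity-dependent gene of neurons, was near the floor at 51.0 ± 9.30 with C1q and 50.3 ± 5.40 without (SD, n = 3 each). Lcn2, for lipocalin-2, and Birc3, an inhibitor of apoptosis, were near it as well, with fold changes of 0.954 and 0.975. Means were higher for 2 of these 7 genes and lower for 5, or 3 and 4 under either rescaling.

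The untreated arrays differed from each other more than the groups did for several NF-kB target genes. Cxcl1, Ccl5, Icam1, Ccl2 and Nfkbiz, or 5 of the 23 genes above the floor, 21.7%, were lowest on untreated array 1 and highest on untreated array 2 of all 6 arrays. Array 2 exceeded array 1 by 1.40-fold for Cxcl1, 1.47-fold for Ccl5, 1.43-fold for Icam1, 1.56-fold for Ccl2 and 1.37-fold for Nfkbiz. The same order was found for 3.01% of all 9577 genes above the floor, for 7.42% of the 3192 genes whose untreated means lay in the range of these 5 genes, and for 13.6% of the 4929 genes near the floor. Of the 22 genes of the pathway near the floor 1, Il1r1, had this order, or 4.55%, which made 6 of all 45, or 13.3%, beside 6.60% of all 14506 genes. Dim genes as a whole were brighter on untreated array 2, where the median deviation from a gene's mean was 0.10 on the log2 scale for genes near the floor, against -0.05 on untreated array 1. The lower quartile of all intensities was 56.4 on untreated array 2 and 50.6 to 52.9 on the other 5 arrays. The genes were picked for this order, so it is given without a test, and the part of the array-wide shift in it was not tested. The sign of the change after C1q depended on these arrays, which follows from how the 5 genes were picked. Leaving out the lowest untreated array lowers such a fold change, and leaving out the highest raises it. For Ccl2 the log2 fold change was -0.10 without untreated array 1 and 0.18 without untreated array 2, and for Cxcl1 it was -0.11 and 0.12. The corresponding values were -0.17 and 0.08 for Ccl5, -0.13 and 0.10 for Icam1 and -0.06 and 0.14 for Nfkbiz, with no adjusted p under 0.811 for any of the 45 genes in either fit.

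**Figure D3:**
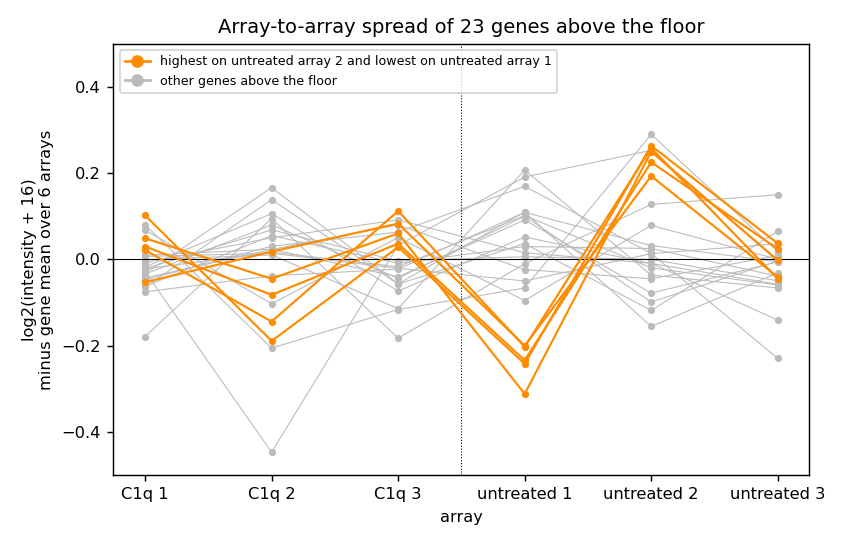
Deviation of log2(intensity + 16) from the gene's mean over 6 arrays, for the 23 genes above the floor, with C1q arrays on the left and untreated arrays on the right of the dotted line. The 5 genes in orange, Cxcl1, Ccl5, Icam1, Ccl2 and Nfkbiz, are lowest on untreated array 1 and highest on untreated array 2.

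Genes with and without an NF-kB consensus match were also set side by side. Among 16 measured genes with a match in their window 6 means were higher and 10 lower after C1q, with log2 fold changes from -0.18 for Vcam1 to 0.10 for Tlr2. Among 19 measured genes with a window and no match 11 were higher and 8 lower. Over all 14506 genes 37.6% of means were higher. Under either rescaling the numbers higher and lower were 7 and 9 with a match and 15 and 4 without. The share of all genes higher under these rescalings was not counted. None of these genes was called, and the difference between the sets was not tested.

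The rest of the pathway was read from 101 further genes, of which 87 were represented by probe sets. None of them was called in the limma fit, and 3 of the 87, Irak3, Ccr2 and Ccl9, had an unadjusted p under 0.05, where 1.25% of all 14506 genes and 2.86% of all probe sets did. The groups did not overlap for 8 of the 87, 2 higher and 6 lower after C1q, or 9.20%, beside 6.33% of all genes and 7.06% of all probe sets. These 8 were Ngfr and Ccl9, higher, and Irak3, Ccr2, Cxcl11, Sele, Mmp9 and Selp, lower. Means were higher after C1q for 33 and lower for 54, or 37.9% higher, beside 37.6% of all 14506 genes. Above the floor were 40, or 46.0%, beside 66.0% of all genes. Of 27 genes that signal to NF-kB 21 were above the floor, among them Ube2n, the ubiquitin-conjugating enzyme that works with TRAF6, at 2652 ± 136 in C1q and 2678 ± 162 in untreated neurons, and the deubiquitinase gene Cyld at 1887 ± 81.6 and 1926 ± 126 in the same order (SD, n = 3 each). The smallest unadjusted p in this list belonged to Irak3, an inhibitory member of the IRAK family near the floor, at 33.9, 36.6 and 30.6 on C1q arrays and 45.6, 39.3 and 49.1 on untreated arrays. Its groups did not overlap, and its fold change of 0.820 did not pass after adjustment. Map3k8 and Ripk2, both kinase genes, followed with fold changes of 0.886 and 1.07.

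Among 22 further receptors, 9 were above the floor. Il6st, the signal-transducing chain gp130 used with the interleukin-6 receptor, read 622 ± 9.55 after C1q and 625 ± 72.4 without, and Ackr3, an atypical receptor of CXCL12, read 805 ± 40.4 and 832 ± 29.9 in the same order (SD, n = 3 each). These names were chosen after their values were seen, to stand beside Il6r and Cxcr4. The smallest unadjusted p values belonged to Ccr2, Ngfr and Cd14, all near the floor. Ccr2, the receptor of CCL2, read 31.5, 32.5 and 29.7 with C1q and 47.1, 40.5 and 40.1 without, and its groups did not overlap. Ngfr, the p75 neurotrophin receptor, had a fold change of 1.16 without overlap of the groups, and Cd14, a coreceptor of TLR4, one of 1.16 with overlap. Tlr9, a receptor of unmethylated CpG DNA, was above the floor, unlike the 3 Toll-like receptor genes described before, at 143 ± 8.10 with C1q and 145 ± 16.1 without (SD, n = 3 each), and was named after its values were seen.

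Of 38 further cytokines, chemokines and NF-kB targets 10 were above the floor. Il11, a cytokine of the interleukin-6 family, was one of them, at 151 ± 8.05 with C1q and 167 ± 23.5 without (SD, n = 3 each). Sod2, the mitochondrial superoxide dismutase, read 699 ± 22.2 in C1q and 676 ± 18.6 in untreated neurons (SD, n = 3 each), and both were named after their values were seen. Gadd45b, an NF-kB and activity-induced gene, averaged 208 ± 13.5 with C1q and 211 ± 20.0 without (SD, n = 3 each), at a fold change of 0.985 and a 95% interval from 0.856 to 1.13. Ier3 and the transcription factor gene Irf1, further early targets, were near the floor with fold changes of 1.02 and 1.02. The chemokine gene Ccl9 had the smallest unadjusted p of this list. It read 61.0, 67.1 and 61.2 on C1q arrays, against 46.9, 38.2 and 55.9 on untreated arrays, without overlap, but near the floor. Its fold change of 1.26 did not pass after adjustment. Cxcl11 and the endothelial adhesion gene Sele read lower after C1q, at fold changes of 0.880 and 0.891 that did not pass, with the groups of each not overlapping.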

How the data were processed

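Biotin-labelled cRNA from total RNA was hybridised to 6 one-colour Affymetrix arrays, per the labels' protocols. The deposited table gives 1 linear intensity per probe set and array. How the authors corrected, summarised, normalized and centred these intensities is not given in the sources used here. Of 29215 probe sets 15310 name exactly 1 gene, 323 several and 13582 none, and 15279 of the first kind matched a RefSeq table of assembly GRCr8 by gene identifier. Each gene was read from its brightest single-gene probe set over the 6 arrays. Values were analysed as log2(intensity + 16), which understates fold changes of dim genes. Array medians differed by at most 0.070 log2, under a limit of 0.1, so no centring was applied. All probe sets were fitted without an intensity filter in limma 3.58.1 (R 4.3.3), using lmFit, then eBayes with a mean-variance trend, and p-values were adjusted by Benjamini-Hochberg over all 29215, with calls at an adjusted p under 0.05. The fit was tested on simulated data. Precision is limited by the number of arrays. Alternatives covered scaling, filter, pseudocount, variance model, array weights, replicate block, probe sets and left-out arrays. The genes, lists and rules were chosen with earlier results of these data known. The motif search and the untreated-array order of 5 genes were added after the values were seen. By rule, values on each array are given for genes above the floor, genes whose groups do not overlap, 6 genes chosen by name and the 3 genes per direction of smallest unadjusted p. Each further pathway list names its 3 genes of smallest p, and 5 genes were chosen by name.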

Additional observations from a re-analysis of the deposited data

How the results depend on the processing

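The 45 genes were tested under 17 alternatives, and 0 of the 710 values for single genes were called. In 78 of them the sign differed from the value reported, without a call on either side, and 17 genes kept their sign in all alternatives run, among them Nfkbia, Nfkbie, Ccl4, Vcam1, Nos2 and Tnf. Over all probe sets the single call became 0 with only the brightest 60% or 40% tested, 11 with array weights, 2 with the replicate block and 1 to 5 with each array left out, the 5 without untreated array 2. None of these probe sets represented one of the 45 genes or the 87 further pathway genes. Testing the brightest 60% or 40% left 23 and 12 of the 45 genes, of which 12 and 7 had higher means. The median log2 fold change of all 45 genes was 0.022 with median centring and -0.034 to -0.0044 with each array left out. Genes above the floor numbered 12 with the floor taken from genes of other tissues, 31 at the 90th percentile of the receptor genes, 16 at the median of all probe sets and 23 with rat vomeronasal receptors added, an alternative chosen after seeing the data. Same-numbered arrays did not deviate together, with correlations of their deviations from the group means of 0.01, -0.31 and -0.07. Between differently numbered arrays of the 2 groups these correlations ran from -0.247 to 0.295. The labels do not say that the numbers mark shared cultures, so they were not taken as pairs. Without detection calls, signal over background is unknown, and changes of transcripts near the floor or little above it could not be bounded.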

Other observations

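Some genes of other tissues read well above the floor in both groups. Prm1, a sperm protamine gene, averaged 1203 ± 42.1 in C1q and 1277 ± 79.5 in untreated neurons, and Ins2, an insulin gene, averaged 393 ± 50.9 and 397 ± 72.6 in the same order (SD, n = 3 each). Alb, the serum albumin gene, read 31.4 ± 4.07 after C1q and 29.6 ± 8.97 without (SD, n = 3 each). Of 37 such genes 9 were above the floor, against 23 of the 45 NF-kB, cytokine, chemokine and Toll-like receptor genes.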
